A study of Mus musculus with 4 samples.

Results

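Amino acid transporter genes were followed in macrophages sorted from mouse prostate tumours that did or did not overexpress BMP4, a secreted bone morphogenetic protein. The set was every protein-coding gene whose symbol starts with Slc1a, Slc3a, Slc6a, Slc7a, Slc36a, Slc38a or Slc43a followed by a number, and it held 64 of the 39179 genes counted. MycCaP is a mouse prostate cancer line with a MYC transgene, and MycCaP-BMP4 is the same line overexpressing BMP4. Both were grown as subcutaneous tumours in FVB mice, and macrophages were sorted as CD45+, CD11b+, GR1- and F4/80+ cells. The groups were MycCaP-BMP4 tumours and MycCaP tumours, with 2 libraries each, numbered replicate 1 and replicate 2. The labels give neither age nor sex of the mice, nor the promoter of the BMP4 construct. They do not say whether the samples are from separate mice, and the p-values below thus cover the spread among these 4 libraries alone, part of which may be technical. The sample titles name F4/80 in the MycCaP-BMP4 group alone, while the cell type label is the same in both.

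Cells cannot pass amino acids through their membranes without carriers, and the SLC families divide this work by substrate and by driving force. The SLC7 light chains are exchangers that reach the cell surface bound to a heavy chain of the SLC3 family. SLC1 and SLC38 members take up small neutral amino acids such as glutamine and alanine or the acidic ones, often with sodium. SLC36 and several SLC38 members sit on lysosomes, and SLC6 members carry glycine, taurine, creatine and neurotransmitters. In macrophages, arginine import feeds nitric oxide synthase and arginase, and cystine import feeds glutathione.

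The libraries held 24313328 and 23058263 counts in genes for MycCaP-BMP4 replicates 1 and 2, against 24967143 and 24385036 for MycCaP. Values are given below as CPM (counts scaled to the TMM-adjusted library total), replicate 1 before replicate 2. Bmp4 itself had 14136 and 4138 counts in the MycCaP-BMP4 libraries, against 4 and 1 in the MycCaP libraries. All 20 pan-macrophage marker genes were detected in every library, but their summed level was 10258 and 39584 CPM in MycCaP-BMP4, against 51804 and 46456 CPM in MycCaP. Their median was 19.6% of the MycCaP mean for MycCaP-BMP4 replicate 1 but 76.3% for replicate 2. The summed level of the 19 tumour epithelium markers was 1277 and 514 CPM, against 251 and 286 CPM, with 16 of 19 detected and Esrp1 and Krt5 among those at 0 in every library. Of the 12 tested, 9 were higher and 1 lower without overlap, where 28.9% and 29.7% of all tested genes were. Cldn3 was at 359 and 126 CPM, against 25.8 and 27.6 CPM. Epcam had 0 and 14 counts, against 7 and 6, and Krt18 had 0 and 3, against 0 and 2, so both were near 0 in every library. The 17 T and NK cell markers, all detected, summed to 20.3 and 57.6 CPM, against 126 and 121 CPM. The 9 osteoblast and cartilage markers, all detected, summed to 144 and 81.1 CPM, against 19.98 and 28.9 CPM. In such sorted bulk samples fewer cells of a type and less RNA per cell cannot be told apart, and the part of these shifts in the results below was not tested.

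The transporter genes split into a set that was higher and a set that was lower in the MycCaP-BMP4 libraries. Genes for carriers of neutral and cationic amino acids, Slc1a4, Slc1a5, Slc38a1, Slc38a2, Slc38a4, Slc7a1, Slc7a5 and Slc7a6, and the creatine transporter gene Slc6a8 lay higher in each MycCaP-BMP4 library than in either MycCaP library. The exchanger gene Slc7a7, the heavy chain gene Slc3a2 and the facilitative leucine transporter gene Slc43a2 lay lower in each. Of the 30 genes with enough counts to test, the groups did not overlap for 14 that were higher, where 28.9% of all 14075 tested genes did so, and for 9 that were lower, where 29.7% did so. The lower share, 9 of 30, is near the background. The median log2 fold change of MycCaP-BMP4 over MycCaP was 0.13, against -0.03 over all tested genes. The sign of that median was not stable: it was -0.13 with the replicate block or the crossed block, -0.15 with limma-voom and -0.14 without MycCaP-BMP4 replicate 2. Of these 30, 26 passed the minimum count in both groups, with 13 higher and 6 lower. The share over all genes that passed in both groups was not taken, so counts among the 26 have no like background. Slc7a3 passed through the MycCaP-BMP4 libraries alone, and Slc38a3, Slc38a5 and Slc43a1 through the MycCaP libraries alone, so for those 4 the filter itself favoured a difference. Slc7a6os, which the symbol rule takes but which is no transporter, is 1 of the 14 higher genes.

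None of the 30 genes passed edgeR's quasi-likelihood test with Benjamini-Hochberg adjustment over all genes at the 0.05 threshold, where the call rate over all tested genes was 0.0%. At an unadjusted p under 0.05, 8 were higher (12.3% of all tested genes) and 2 were lower (6.76%). Together that is 10 genes, where 19.0% of all tested genes passed. The 2 lower genes were Slc38a3 and Slc38a5, and among the 26 genes over the minimum in both groups 8 were higher and 0 lower. DESeq2 called 6 of the 30 (9.84% of all tested genes), of which Slc1a4, Slc38a4, Slc6a8 and Slc7a5 were higher (6.83%) and Slc38a3 and Slc38a5 were lower (3.01%). Among the 26 it called 4 higher and 0 lower, again without a like share over all genes. limma-voom called 0, with 11 at an unadjusted p under 0.05 (19.5% of all tested genes). Without MycCaP-BMP4 replicate 1, edgeR called 3 (7.64% of all tested genes), Slc1a4, Slc6a8 and Slc7a2, all higher. Without MycCaP-BMP4 replicate 2 it called 21 (41.9%), and 15 genes lay higher and 15 lower without overlap (43.4% and 44.1%). In those fits the lone library is assumed to vary like the MycCaP pair, so the calls do not tell whether a difference repeats. Leaving out 1 library in turn gave 9 to 15 lower genes, where the other 3 fits had 39.5%, 37.8% and 39.5% of all tested genes. In further edgeR fits, 3 were called when libraries were scaled on macrophage markers (6.96% of all tested genes), 5 with no filter on low counts (5.07%) and 2 with crossed replicate numbers as a block (4.9%), while 0 were called with library size alone (0.462%) or with the replicate block (0.0142%).

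The distance from the MycCaP libraries was larger in MycCaP-BMP4 replicate 1 for most of the genes that did not overlap. Replicate 1 lay above replicate 2 for 13 of the 14 higher genes, the exception being Slc7a3, and below it for 8 of the 9 lower genes, Slc38a5 being at 0 in both. Among all tested genes without overlap, the same order held for 83.5% of the higher and 79.9% of the lower genes. The macrophage marker level was also farther from MycCaP in replicate 1, and so was the tumour epithelium level. With library factors taken from the macrophage markers alone, the median of all genes moved from -0.03 to 1.61 and that of the 30 transporter genes from 0.13 to 1.504. The split without overlap became 23 higher (66.8% of all tested genes) and 1 lower (4.24%). The log2 fold changes of the lower genes, Slc38a3, Slc38a5 and Slc7a7 excepted, turned positive but stayed below the 1.61 of all genes.

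**Figure D1:**
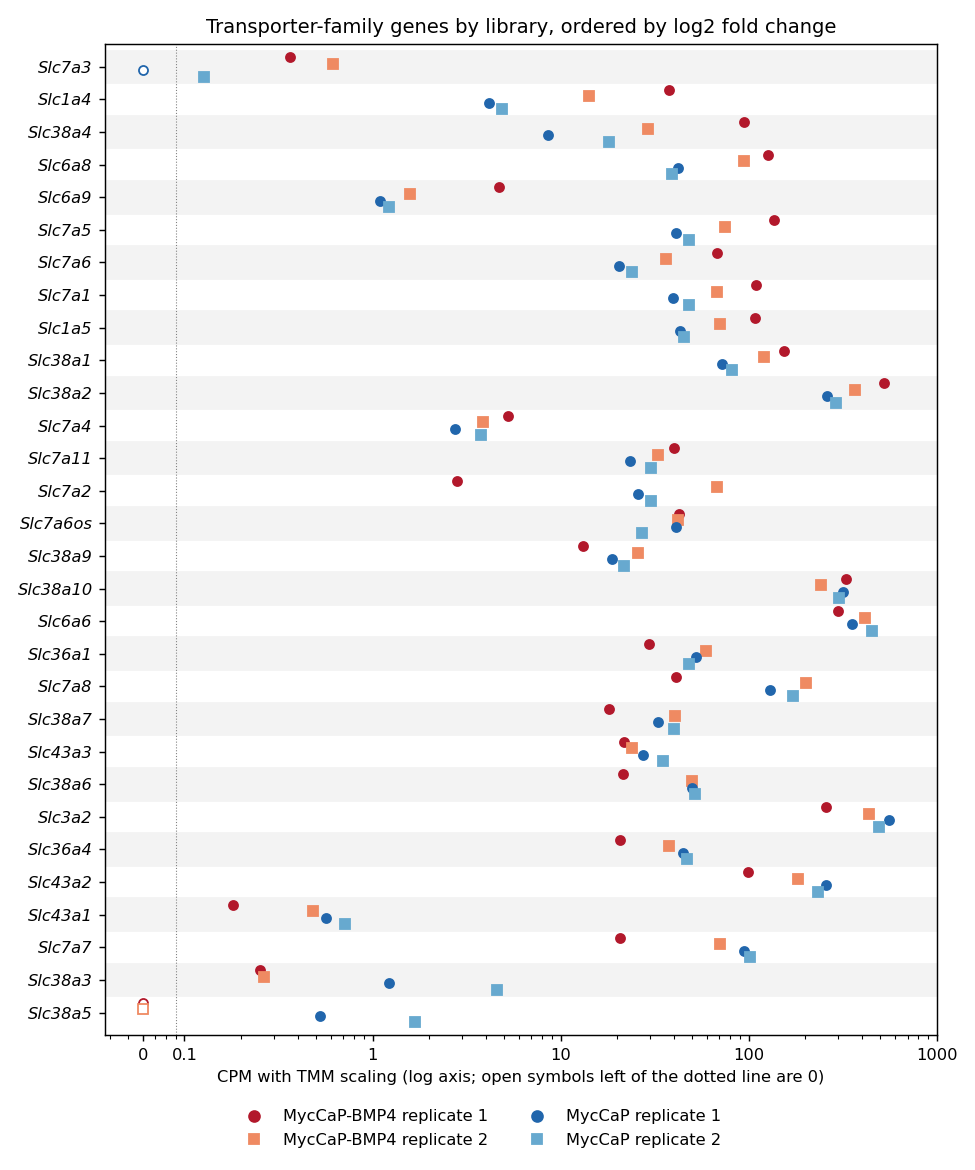
Level of each tested gene in CPM (log axis) in the 2 MycCaP-BMP4 libraries (red and orange, upper marks) and the 2 MycCaP libraries (blues, lower marks), ordered by log2 fold change from the highest at the top. Slc1a4 stands at 37.7 and 14.2 CPM in MycCaP-BMP4 against 4.15 and 4.85 CPM in MycCaP, and Slc7a2 spans 2.82 to 67.7 CPM within the MycCaP-BMP4 group.

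**Figure D2:**
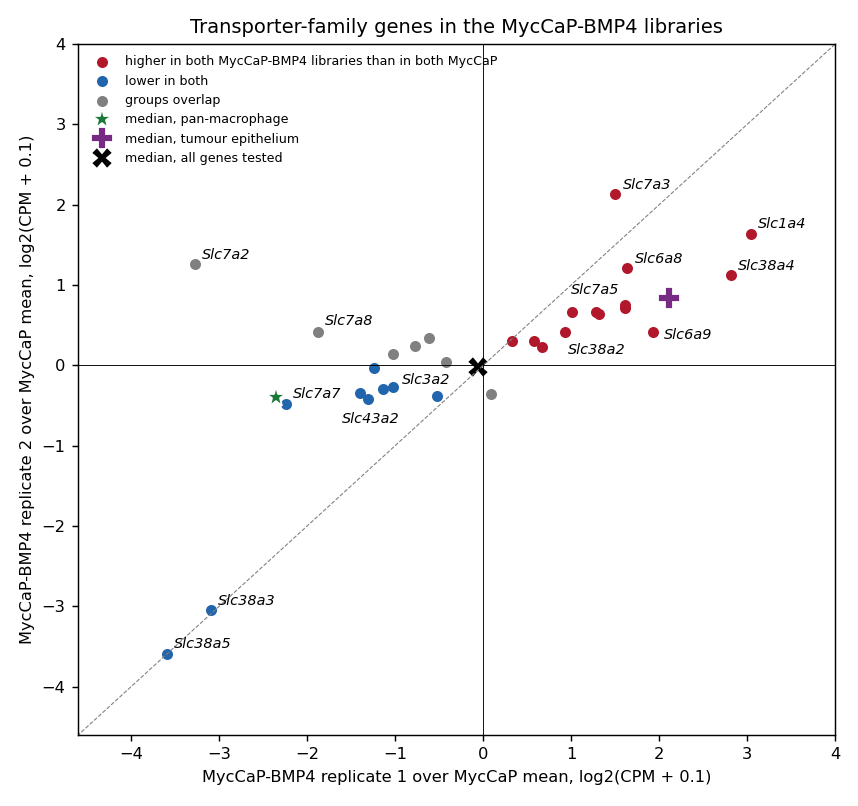
Log2 ratio of each MycCaP-BMP4 library to the MycCaP mean, with 0.1 CPM added, replicate 1 on the horizontal axis and replicate 2 on the vertical axis, one point per tested gene. Points below the dashed line on the right and above it on the left are farther from 0 in replicate 1; the medians of the macrophage markers, the tumour epithelium markers and all tested genes are drawn for comparison.

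Several transporter genes are known targets of ATF4, the transcription factor that responds to amino acid shortage, and promoters were searched for the core of its composite element, spelled TGATGNAA, on both strands. RefSeq promoters on GRCm38.p6 around annotated start sites were at hand for 46 of the 64 genes, and 4 of the 46 (8.70%) held a match, against 4.51% of the 27025 genes in the table. Counted by promoter, 5 of 67 held a match (7.46%), against 3.97% of all 32851 promoters. Slc7a5, Slc1a5, Slc38a1 and Slc6a8 were among the genes without a promoter at hand and were not searched. Of the 20 tested genes with a promoter, 3 held one: Slc1a4, Slc7a11 and Slc7a7. Their promoters are shown because the same letters stand in a gene far higher in the MycCaP-BMP4 libraries, in one little higher and in one lower. Each runs from 150 bases before the start site through its first 25 bases, on the minus strand, 5′ to 3′, with the matches in capitals.
Slc1a4, chr11:20332689-20332863: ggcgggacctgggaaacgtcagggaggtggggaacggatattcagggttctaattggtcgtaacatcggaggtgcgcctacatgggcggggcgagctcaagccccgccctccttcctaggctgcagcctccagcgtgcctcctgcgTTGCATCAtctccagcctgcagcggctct
Slc7a11, chr3:50443589-50443763: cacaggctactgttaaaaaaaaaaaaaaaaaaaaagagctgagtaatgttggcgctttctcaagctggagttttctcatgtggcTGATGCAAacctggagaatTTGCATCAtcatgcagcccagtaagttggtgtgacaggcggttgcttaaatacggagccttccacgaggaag
Slc7a7, chr14:54417920-54418094: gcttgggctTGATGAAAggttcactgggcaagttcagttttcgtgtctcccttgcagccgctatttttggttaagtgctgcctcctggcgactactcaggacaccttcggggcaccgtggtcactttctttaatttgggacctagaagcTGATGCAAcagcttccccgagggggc
The Slc7a11 promoter held 2 matches, one on each strand, at -66 to -59 and at -47 to -40 from its start site. In Slc1a4 the single match lay on the antisense strand across the start site. Slc7a7 had 2 sense matches, and its window belongs to the most upstream of several RefSeq start sites. The fourth gene with a match was Slc6a21, which had no count in any library. A match is a description of these letters and not of binding.

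Among the SLC1 genes, the ASC exchangers were higher and the glutamate transporters were at or near 0. Slc1a4 (ASCT1, an alanine, serine and cysteine exchanger; chromosome 11, 20302180 to 20332713, GRCm38) had 37.7 and 14.2 CPM in MycCaP-BMP4, against 4.15 and 4.85 CPM in MycCaP. Both MycCaP-BMP4 libraries lay well above both MycCaP libraries, and the log2 fold change was 2.53 ± 0.54 (SE), with an edgeR adjusted p of 0.141. Slc1a5 (ASCT2, the main glutamine exchanger of many cancer lines; chromosome 7, 16781340 to 16798274) was at 108 and 70.3 CPM, against 43.3 and 45.5 CPM. The groups did not overlap, and the log2 fold change was 1.00 ± 0.30 (edgeR adjusted p = 0.182). Slc1a1, a neuronal and epithelial glutamate transporter gene, had 29 and 6 counts in MycCaP-BMP4, against 0 and 1 in MycCaP. That gene was too low to be tested, and 31.9% of its exonic length is shared with 4430402I18Rik on the opposite strand. The 4 remaining SLC1 genes, Slc1a2, Slc1a3, Slc1a6 and Slc1a7, had 0 to 8 counts in any library.

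Of the sodium-coupled SLC38 genes, 3 lay higher and 3 lower without overlap among 9 tested, which is near the shares of all tested genes (28.9% and 29.7%). Slc38a1, Slc38a2 and Slc38a4, the system A importers of alanine and glutamine, follow one another on chromosome 15 (96571418 to 97055956) with no protein-coding gene between them, and all were higher. Slc38a2, the most abundant of them, had 525 and 367 CPM in MycCaP-BMP4, against 262.5 and 290.1 CPM in MycCaP. Slc38a1 had 154 and 121 CPM, against 71.9 and 81.3 CPM. In Slc38a4 the values were 94.4 and 29.2 CPM, against 8.61 and 18.1 CPM. The 3 log2 fold changes were 0.69 ± 0.35, 0.85 ± 0.27 and 2.21 ± 0.65 for Slc38a2, Slc38a1 and Slc38a4, and the edgeR adjusted p-values were 0.335, 0.201 and 0.182. In all 3 the lower MycCaP-BMP4 library was replicate 2, which still lay above both MycCaP libraries.

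The system N genes Slc38a3 and Slc38a5, whose products carry glutamine and histidine against protons, were at the other end. Slc38a5 had no count in either MycCaP-BMP4 library, against 12 and 40 counts in MycCaP. With a floor of 3 counts taken over the MycCaP-BMP4 group, it was at least 16.6-fold lower on gene counts alone. The 95% counting interval of the ratio of MycCaP-BMP4 to MycCaP reached up to 0.0766 and leaves out the spread between libraries. Slc38a3 had 7 and 6 counts in MycCaP-BMP4, against 28 and 109 in MycCaP, a log2 fold change of -3.47 ± 0.90 (edgeR adjusted p = 0.155). Both genes were low, and MycCaP replicate 2 held most of their counts. Both passed the filter through the MycCaP libraries alone, which favoured a lower value in MycCaP-BMP4. Slc38a3 stood at 8.70% and 9.05% of the MycCaP mean in MycCaP-BMP4 replicates 1 and 2.

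The other tested SLC38 genes and the SLC36 genes either overlapped or were lower. Slc38a6, a little-studied member, had 21.5 and 49.8 CPM in MycCaP-BMP4, against 50.1 and 52.1 CPM in MycCaP, and was lower without overlap, although replicate 2 lay just below the MycCaP libraries. Slc38a10 had 329 and 242 CPM, against 318.5 and 302 CPM, and here the groups overlapped. Slc38a7, a lysosomal glutamine exporter gene, and Slc38a9, a lysosomal arginine sensor gene of the mTORC1 pathway, also overlapped, with log2 fold changes of -0.33 and -0.06. Of the proton-coupled SLC36 genes, Slc36a1, which releases small amino acids from lysosomes, had 29.5 and 59.6 CPM, against 52.7 and 48.2 CPM, with overlap of the groups. Slc36a4 had 20.8 and 37.5 CPM, against 44.7 and 47.2 CPM, and was lower in both, with a log2 fold change of -0.66 ± 0.34 (edgeR adjusted p = 0.353). Slc36a2 was seen almost entirely in MycCaP-BMP4 replicate 2, with 0 and 52 counts in MycCaP-BMP4, against 0 and 2 in MycCaP.

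The heavy chain and its light chains did not move together. Slc3a2 (CD98 heavy chain; chromosome 19, 8706882 to 8723369) had 259.5 and 437 CPM in MycCaP-BMP4, against 561 and 496 CPM in MycCaP. It was lower in both MycCaP-BMP4 libraries, by a log2 fold change of -0.60 ± 0.39 (edgeR adjusted p = 0.440). The other heavy chain gene, Slc3a1, had 7 and 7 counts, against 1 and 5.

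Slc7a5 (LAT1, which exchanges leucine and other large neutral amino acids; chromosome 8, 121881150 to 121907694) had 136.5 and 75.1 CPM in MycCaP-BMP4, against 41.0 and 47.9 CPM in MycCaP. Its log2 fold change was 1.25 ± 0.36, with an edgeR adjusted p of 0.171. Slc7a6 (y+LAT2) had 68.2 and 36.5 CPM, against 20.5 and 24.0 CPM, and fitted at 1.24 ± 0.37 (edgeR adjusted p = 0.182). Both light chain genes were higher in each MycCaP-BMP4 library. Slc7a7 (y+LAT1, which exports cationic amino acids and is mutated in human lysinuric protein intolerance; chromosome 14, 54369442 to 54417780) had 20.7 and 70.5 CPM, against 94.3 and 102 CPM, a log2 fold change of -1.11 ± 0.57 (edgeR adjusted p = 0.343). Slc7a7 stood at 21.1% and 71.7% of the MycCaP mean, where the macrophage marker median was 19.6% and 76.3%. The lower genes Slc3a2 and Slc43a2 stood at 49.1% and 82.6% and at 40.2% and 74.5%. A link to the macrophage markers was not tested for any of them. Slc7a8 (LAT2; chromosome 14, 54722209 to 54781946) had 41.0 and 201 CPM, against 130.2 and 172 CPM. That gene was lower in replicate 1 and higher in replicate 2, so the groups overlapped. The cystine and glutamate exchanger gene Slc7a11 (xCT) had 40.1 and 33.1 CPM, against 23.3 and 30.4 CPM, which is higher without overlap but by a log2 fold change of only 0.45 ± 0.28 (edgeR adjusted p = 0.419).

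Levels of different genes were set side by side as CPM per kilobase of exon. Summed over the 6 light chains known to pair with Slc3a2, of which Slc7a10 had no count, the level was 69.1 and 92.1 CPM per kilobase in MycCaP-BMP4, against 71.7 and 85.5 in MycCaP. Slc3a2 itself was at 73.5 and 124, against 159 and 141. The ratio of light chains to heavy chain was therefore 0.939 and 0.744 in MycCaP-BMP4, against 0.451 and 0.608 in MycCaP. These ratios need no scaling between libraries, and the groups did not overlap. The share of other gene ratios without overlap was not taken, and the part of the cell marker shifts in these ratios was not tested. Slc7a5 and Slc7a6 made up 74.9% and 30.7% of the light chain level in MycCaP-BMP4, against 21.7% and 21.3% in MycCaP. Slc7a7 and Slc7a8 made up 20.9% and 66.8%, against 76.0% and 76.2%. With 2 libraries a group these shares carry no test of their own, and replicate 2 of MycCaP-BMP4 lay nearer to the MycCaP libraries than replicate 1.

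**Figure D3:**
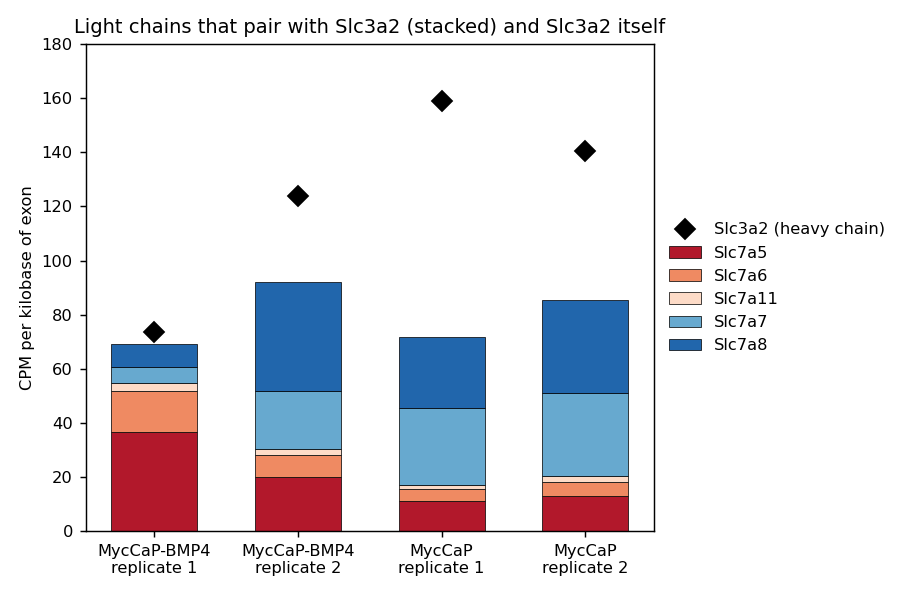
Light chain genes (stacked bars) and the heavy chain gene Slc3a2 (diamonds) in CPM per kilobase of exon, for the 2 MycCaP-BMP4 libraries on the left and the 2 MycCaP libraries on the right. The bars total 69.1, 92.1, 71.7 and 85.5 from left to right, while Slc3a2 stands at 73.5, 124, 159 and 141.

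The cationic amino acid importers differed among themselves. Slc7a1 (CAT1, the widely expressed arginine and lysine importer) had 109 and 68.05 CPM in MycCaP-BMP4, against 39.5 and 48.1 CPM in MycCaP, a log2 fold change of 1.01 ± 0.32 (edgeR adjusted p = 0.198). Slc7a2 (CAT2, the arginine importer that activated macrophages induce; chromosome 8, 40862396 to 40922308) had 2.82 and 67.7 CPM, against 25.9 and 30.4 CPM. It was thus the lowest in MycCaP-BMP4 replicate 1 and the highest in replicate 2, at 10.02% and 240.3% of the MycCaP mean, and the fitted log2 fold change of 0.32 ± 1.19 (edgeR adjusted p = 0.897) describes neither library. The arginase gene Arg1 was also lowest in MycCaP-BMP4 replicate 1 and highest in replicate 2, with 81.3 and 1073 CPM, against 744 and 623 CPM. Slc7a8 and Slc36a1, among others, had that placing too. Slc7a3 (CAT3) was barely detected, with 10 and 14 counts, against 0 and 3. The ratio on gene counts was 8.33, with a 95% counting interval of 2.53 to 43.2 that leaves out the spread between libraries. The fitted log2 fold change was 2.83 ± 1.23 (edgeR adjusted p = 0.289). Slc7a3 passed the filter through the MycCaP-BMP4 libraries alone, which favoured a higher value there. Slc7a4, a related gene with no settled substrate, was higher without overlap by a narrow margin, at 5.25 and 3.86 CPM, against 2.75 and 3.80 CPM. Its raw counts, 145 and 88 against 63 and 90, did overlap. The log2 fold change was 0.48 ± 0.49 (edgeR adjusted p = 0.613), and 13.3% of its exonic length is shared with P2rx6 on the opposite strand.

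The facilitative transporters of the SLC43 family were lower. Slc43a2 (LAT4; chromosome 11, 75531694 to 75577575) had 98.8 and 183 CPM in MycCaP-BMP4, against 257 and 234 CPM in MycCaP, a log2 fold change of -0.80 ± 0.38 (edgeR adjusted p = 0.319). Slc43a1 (LAT3) had 0.181 and 0.483 CPM, against 0.568 and 0.717 CPM. Slc43a3, whose product carries nucleobases and not amino acids, had 21.8 and 23.9 CPM, against 27.5 and 35.2 CPM. Groups did not overlap for any of the 3, where 29.7% of all tested genes were lower without overlap. The log2 fold changes of Slc43a1 and Slc43a3 were -0.96 ± 0.81 and -0.45 ± 0.27 (edgeR adjusted p = 0.544 and 0.404). Slc43a1 passed the filter through the MycCaP libraries alone, which favoured a lower value in MycCaP-BMP4.

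Of the 21 SLC6 genes, 3 could be tested and 9 had no count in any library. Slc6a8 (creatine transporter; chromosome X, 73673150 to 73682502) had 127 and 94.5 CPM in MycCaP-BMP4, against 42.4 and 39.1 CPM in MycCaP. Its log2 fold change was 1.44 ± 0.27, with an edgeR adjusted p of 0.132, the smallest of the 30 genes. Slc6a8 was 3.12-fold and 2.32-fold the MycCaP mean in replicates 1 and 2, more alike than the 8.37-fold and 3.16-fold of Slc1a4. Slc6a9, a glycine transporter gene, had 4.70 and 1.58 CPM, against 1.09 and 1.22 CPM, a log2 fold change of 1.44 ± 0.72 (edgeR adjusted p = 0.335), and 27.8% of its exonic length is shared with Ccdc24 on the opposite strand. The taurine transporter gene Slc6a6 was abundant in every library, at 300.5 and 415 CPM, against 354 and 454 CPM, without a gap between the groups.

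Taken over the 63 transporter genes, the summed level was 423 and 471 CPM per kilobase in MycCaP-BMP4, against 450 and 464 in MycCaP, and the groups overlapped. The 5 most abundant, Slc3a2, Slc38a10, Slc6a6, Slc38a2 and Slc7a8, held 53.8% and 62.1% of it, against 68.1% and 66.5%. Slc3a2 alone held 17.4% and 26.3%, against 35.4% and 30.3%, and Slc38a2 held 14.03% and 8.82%, against 6.61% and 7.08%. The remaining 64th gene, Slc7a6os, takes its symbol from its neighbour Slc7a6 and is no transporter; it had 42.7 and 42.0 CPM, against 41.0 and 27.2 CPM. Of the 34 genes too low to test, 15 had no count in any library, where 3 counts would be worth 0.120 to 0.130 CPM. The other 19 reached 52 counts at most.

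Lists of related genes gave the setting of these transporters. None of their members passed edgeR's test over all genes (0.0% of all tested genes). Their counts without overlap stand against 28.9% higher and 29.7% lower over all tested genes, those at an unadjusted p under 0.05 against 12.3% and 6.76%, and the DESeq2 calls against 9.84%. Most counts are small, and several are near those shares. In the list of glutamine and glutamate metabolism, 7 of 17 tested lay higher and 4 lower without overlap. The median log2 fold change was 0.33, with 5 genes higher and 0 lower at an unadjusted p under 0.05, and 3 called by DESeq2. Asns, asparagine synthetase, had 107 and 39.5 CPM in MycCaP-BMP4, against 13.6 and 15.5 CPM in MycCaP. Ppat, the first enzyme of purine synthesis and a user of glutamine, was at 93.5 and 50.3 CPM, against 25.4 and 26.5 CPM, and the glutaminase gene Gls2 was at 12.2 and 5.75 CPM, against 1.88 and 2.996 CPM. All 3 were higher in each MycCaP-BMP4 library, with the larger distance in replicate 1. Of 8 mitochondrial amino acid carriers tested, 4 lay higher and 1 lower, with a median of 0.60. Slc25a13, an aspartate and glutamate carrier gene, was at 41.2 and 24.3 CPM, against 15.7 and 16.8 CPM.

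Lower genes outnumbered higher ones in the list of ATF4 and amino acid response genes, which also holds Asns. Of 34 tested, 6 lay higher and 16 lower without overlap, the median log2 fold change was -0.14, and 4 were higher and 6 lower at an unadjusted p under 0.05, with 4 called by DESeq2. The 4 higher of 34 are near the 12.3% of all tested genes. Ddit4, an mTORC1 inhibitor gene, had 34.1 and 33.5 CPM, against 90.9 and 89.8 CPM, a log2 fold change of -1.42 ± 0.23 (edgeR adjusted p = 0.116), and here both MycCaP-BMP4 libraries were equally low. Stc2, which encodes the secreted protein stanniocalcin, had 0.0724 and 0.351 CPM, against 3.72 and 1.81 CPM. Both MycCaP-BMP4 values of Stc2 lay under the filter minimum of 0.411 CPM. It thus passed through the MycCaP libraries alone, which favoured a lower value in MycCaP-BMP4. In the list of lysosomal amino acid sensing and mTORC1, 2 of 30 lay higher and 9 lower, with a median of -0.06. Rragb, a Rag GTPase gene, was at 27.2 and 9.83 CPM, against 4.11 and 4.30 CPM, and Sesn2, a leucine sensor gene, was at 18.4 and 12.8 CPM, against 28.9 and 29.7 CPM.

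For genes that use the imported amino acids, the shares of all tested genes to set beside the counts are again 28.9% higher and 29.7% lower. Of 21 cystine, cysteine and glutathione genes, 5 lay lower and 7 higher, a median log2 fold change of -0.06. Ggt1, which breaks down extracellular glutathione, had 61.1 and 24.1 CPM in MycCaP-BMP4, against 11.9 and 13.8 CPM in MycCaP, and Gclc, which catalyses the first step of glutathione synthesis, had 67.3 and 66.8 CPM, against 34.9 and 43.9 CPM. Cth of the same list had 9.23 and 5.22 CPM, against 1.22 and 2.49 CPM. Of 18 arginine, tryptophan and branched-chain genes tested, 5 lay higher and 7 lower, with a median of -0.13. Nos2, the inducible nitric oxide synthase gene, was at 0.724 and 2.24 CPM, against 8.44 and 9.91 CPM, and the spermidine synthase gene Srm had 184.7 and 91.4 CPM, against 49.0 and 54.6 CPM. Ido1 of the same list had 2.57 and 1.45 CPM, against 0.131 and 0.295 CPM. Both MycCaP values of Ido1 lay under the filter minimum of 0.411 CPM, which favoured a higher value in MycCaP-BMP4. Of 5 other amino acid, peptide and vesicular carriers tested, 0 lay higher and 2 lower, with a median of -0.37; Slc15a3, a lysosomal peptide and histidine transporter gene, had 146 and 353 CPM, against 593 and 422 CPM.

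**Figure D4:**
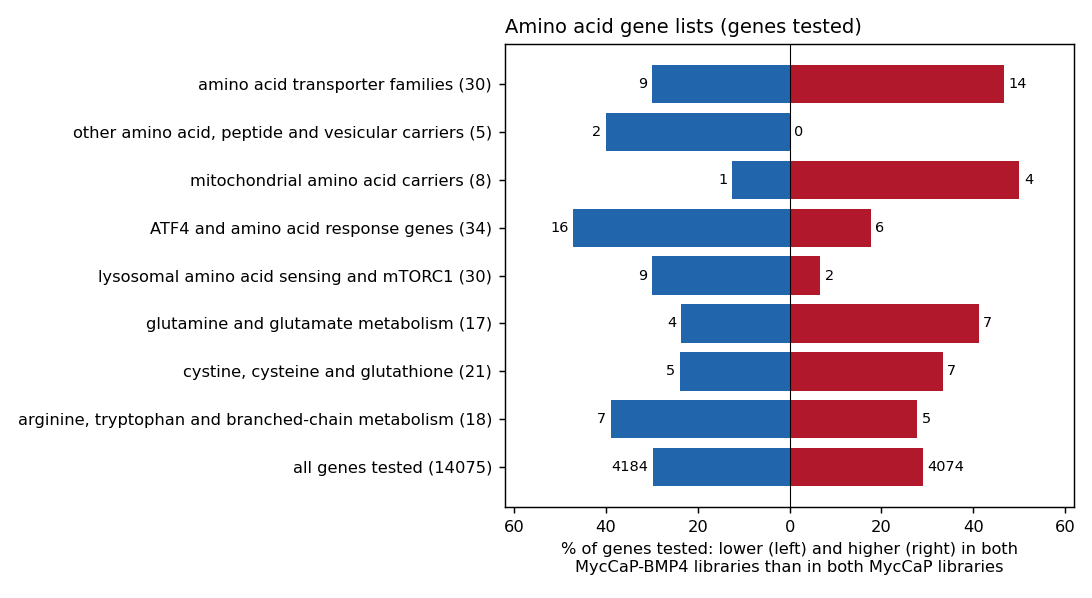
Percent of tested genes in each list that lay lower (blue, left) or higher (red, right) in each MycCaP-BMP4 library than in either MycCaP library, with the gene number beside each bar and the number tested in brackets. The transporter families have 14 of 30 higher and 9 of 30 lower, against 28.9% and 29.7% of all tested genes in the bottom row.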

How the data were processed

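RNA from sorted macrophages was sequenced in 4 libraries, 2 per group. The authors deposited raw read counts per Ensembl gene identifier. HTSeq is the counter named per the submitters' processing notes. Bowtie2 2.2.3, RSEM and STAR 2.6.0b are named there too, with no role, and mm10 (GRCm38) is the build. Libraries were strand-specific and selected for polyadenylated RNA, per the labels' protocols. Neither the annotation release nor the strand setting of the counting was given in the sources used, and genes that overlap another on the opposite strand (8 of the 30 tested, among them Slc7a7, Slc43a2, Slc38a10, Slc6a6 and Slc7a2) are uncertain to that extent. Entries other than genes (no feature, ambiguous, not unique) stayed out of library sizes. Genes held 80.6% and 81.9% of the reads in MycCaP-BMP4, against 85.1% and 85.4% in MycCaP.

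Symbols, biotypes, coordinates and exonic lengths came from GENCODE M21 (GRCm38), which matched 37607 of 39179 identifiers. Counts were filtered with filterByExpr (minimum count 10), which left 14075 genes, scaled with TMM and tested by quasi-likelihood in edgeR 4.0.16 (two-sided, no covariate), with p-values adjusted over all 14075 genes (threshold 0.05). The SE of a fold change is the log2 fold change divided by the square root of its F statistic. DESeq2 1.42.0 and limma-voom (limma 3.58.1) were alternatives, with R 4.3.3. Genes given in every library were the heavy chains, the 14 members with the highest mean CPM and up to 10 in each direction with the smallest p whose groups did not overlap. From each related list up to 3 with the smallest p qualified. Slc7a2, Slc7a4, Slc7a11, Slc7a6os, Slc38a7, Slc38a9, Arg1 and the untested genes fall outside that rule and were picked with their values in view. The members and lists were chosen with earlier results of these data known. Intervals and floors cover counting error only. The lists share members with each other, Asns and Sesn2 among them. One marker gene is not reported here by name.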

Additional observations from a re-analysis of the deposited data

How the results depend on the processing

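Across 13 alternatives, the count of transporter genes called at the adjusted threshold was 0 with DESeq2's size factors, library size alone, 1 CPM in 2 libraries, limma-voom and the replicate block. It was 5 with no filter on low counts, 3 when scaled on the macrophage markers, 6 with DESeq2's test and 0 to 21 with 1 library left out. Macrophage scaling gave 23 genes higher (66.8% of all tested genes) and 1 lower (4.24%). The median log2 fold change of the transporter genes was then 1.504, against 1.61 over all tested genes. The transporter median turned negative with the replicate block (-0.13), the crossed block (-0.13) and limma-voom (-0.15). With 1 library left out it ranged from -0.14 to 0.30, and 9 to 15 genes lay lower without overlap (37.8% to 44.1% of all tested genes). The replicate numbers are not stated to pair the samples. Same-numbered libraries deviated from their group means with a correlation of -0.127 over genes. A block on the crossed numbers, chosen after seeing the data, called 2 (4.9% of all tested genes). The cause of these differences was not tested.

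Of the 25 genes followed through the settings, 10 reversed under macrophage scaling, to log2 fold changes of 0.83 for Slc3a2, 1.34 for Slc6a6, 1.67 for Slc38a10, 0.59 for Slc43a2, 0.63 for Slc7a8, 1.16 for Slc36a1, 0.76 for Slc38a6, 0.74 for Slc36a4, 1.16 for Slc43a3 and 0.22 for Slc43a1. Under macrophage scaling the median of all tested genes was 1.61. Relative to that median, Slc38a10 stood at 0.056. The other reversed genes stayed negative, from -0.27 for Slc6a6 to -1.39 for Slc43a1. With library size alone, Slc38a10 was at 0.068. Slc7a2 turned to -0.96 with the replicate block, -0.95 with crossed numbers and -1.15 with limma-voom. With 1 library left out, Slc6a6 ranged from -0.40 to 0.035, Slc38a10 from -0.36 to 0.12, Slc7a8 from -1.85 to 0.41, Slc36a1 from -0.75 to 0.24 and Slc7a2 from -3.29 to 1.26. Genes near the floor of 3 counts are limited by depth.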
